A study of Mus musculus with 30 samples.

Results

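The 8 genes described here are known from Schwann cells and their myelin, and were read in RNA-seq libraries of mouse gastrocnemius muscle. They are Mbp, Pmp22, Prx, Mag, Cnp, S100b, Sox10 and Ngfr, picked by gene symbol out of 56951 symbols in the tables, with the longest row taken where a symbol had several. The set was drawn up with earlier results of the same LD and ADV comparison known. Differences of the 8 genes between these groups are therefore given below as a description, and nothing is read from how many passed a test. The wild-type male C57BL/6J mice lived singly with a running wheel and were adult when the schedules began and old when killed. All of them first had 2 weeks of a cycle with 12 h of light and then 2 weeks of constant darkness. The control mice (LD, n = 14) then returned to that cycle for 64 weeks, whereas the mice under chronic jet lag (ADV, n = 16) had the cycle advanced by 8 h every 4 days over the same time. The study assigned equal numbers to both groups and lost 2 LD mice, and each library came from 1 mouse. A whole muscle holds fibers, vessels, connective tissue and the nerve branches that run through it, and the hour of death of each mouse was not used here.

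Schwann cells are the glia of peripheral nerve. The myelinating kind wraps a motor or large sensory axon in compact myelin, which speeds conduction, while the non-myelinating kind enfolds thin axons or caps the neuromuscular junction. In a muscle extract these cells contribute little RNA beside the fibers, and the axons add little because their nuclei sit in the spinal cord and ganglia.

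Reads counted on exons numbered 19015401 to 28512674 per LD library and 18875468.5 to 25699603.5 per ADV library. Expression is given as FPKM, which scales reads to exon length and library size, so that genes can be set against each other. Summed markers of fast fibers came to 31991 to 44553 FPKM per library, which marks the tissue as fast skeletal muscle as labelled. Beside this, Pmp22 and Mbp had means of 15.5 and 11.3 FPKM over the 30 mice. Of listed Schwann cell genes outside the 8, Erbb3, the neuregulin receptor, averaged 0.711 FPKM. None of 5 neuronal genes (Nefl, Nefm, Nefh, Prph and Chat) reached the minimum for testing, and Chat had no read in any library.

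The order of the 8 genes by level was nearly the same in every mouse. Pmp22 stood above Mbp in 29 of 30 mice. Mbp then exceeded Cnp, Cnp exceeded Prx, Prx exceeded S100b, S100b exceeded Sox10 and Sox10 exceeded Mag in 30 of 30 mice each. At the lower end Mag exceeded Ngfr in 27 of 30 mice. Mean levels per length of neighbours in this order differed by 1.38-fold between Pmp22 and Mbp and by 3.14-fold between Mbp and Cnp. Testing between groups was limited to genes that averaged more than 20 reads and more than 0.5 FPKM, which kept 5 of the 8 genes. Sox10 had enough reads (30.7 on average) but only 0.453 FPKM, and Mag and Ngfr averaged 12.5 and 12.1 reads.

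Mbp encodes myelin basic protein, which sits on the inner face of the membrane and holds the compact layers together. In LD its level ran from 6.08 FPKM through a median of 8.81 to 14.5 FPKM, and the mean was 9.38 ± 2.65 FPKM (SD, n = 14). In ADV it ran from 6.52 through a median of 13.0 to 22.9 FPKM, with a mean of 12.9 ± 4.58 FPKM (SD, n = 16). The ranges overlapped over most of the LD values, although 12 of 16 ADV mice lay above the LD median. The difference in Mbp was 0.45 ± 0.16 on the log2 scale (ADV over LD, SE). In a bulk sample like this one, a change in the number of Schwann cells and a change in the RNA of each cell cannot be told apart.

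Pmp22 encodes a small membrane protein of compact myelin, known for the neuropathies that follow a change of its gene dosage, and it is also made outside nerve. Its level in LD was 11.6 FPKM at the lowest, 14.3 at the median and 17.3 at the highest, and the mean was 14.1 ± 1.82 FPKM (SD, n = 14). The ADV values went from 11.8 through 16.3 to 28.7 FPKM around a mean of 16.7 ± 4.09 FPKM (SD, n = 16). The low ends of both groups were alike, and the ADV group reached further up. On the log2 scale the difference in Pmp22 was 0.22 ± 0.09 (SE), and 12 of 16 ADV mice exceeded the LD median.

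Prx encodes periaxin, a scaffold at the outer face of the myelin sheath. It ranged in LD from 0.816 through 1.25 to 2.16 FPKM with a mean of 1.33 ± 0.391 FPKM (SD, n = 14), and in ADV from 1.01 through 1.69 to 3.73 FPKM with a mean of 1.87 ± 0.743 FPKM (SD, n = 16). Again 12 of 16 ADV mice were above the LD median while the lower ADV mice were within the LD range. The log2 difference in Prx was 0.47 ± 0.17 (SE). An antisense long noncoding RNA, Gm15541, covers 5.56% of its exon bases in the annotation, with a mean of 0.0348 FPKM of its own.

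Mag and Cnp are known from the uncompacted parts of the sheath. Mag encodes the adhesion protein that faces the axon, and it was read from very few fragments: 3 to 15 reads in LD with a median of 10.8, and 5 to 27 reads in ADV with a median of 13.5. No library lacked reads of Mag, and 13 of 16 ADV mice exceeded the LD median in FPKM. The antisense Gm44662 covers 6.38% of the exon bases of Mag. The log2 difference of Mag in a fit without the minimum was 0.56 ± 0.21 (SE), a value resting on counts of this size. Cnp encodes an enzyme of noncompact myelin that other cell types also make at lower levels. It ran in LD from 2.86 through 3.43 to 4.27 FPKM, with a mean of 3.46 ± 0.472 FPKM (SD, n = 14). The ADV values were 2.98, 3.79 and 4.53 FPKM in the same order, with a mean of 3.72 ± 0.474 FPKM (SD, n = 16). The groups covered nearly the same range of Cnp, and the log2 difference of 0.09 ± 0.07 (SE) was the smallest among the 5 tested genes.

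S100b, Sox10 and Ngfr are used as markers of the Schwann cell itself. S100b, a calcium-binding protein of glia, went from 0.506 through 0.709 to 1.40 FPKM in LD, with a mean of 0.820 ± 0.303 FPKM (SD, n = 14). In ADV S100b went from 0.618 through 1.04 to 2.02 FPKM, with a mean of 1.13 ± 0.421 FPKM (SD, n = 16). Most ADV mice (14 of 16) were above the LD median, still with overlapping ranges, and the log2 difference in S100b was 0.44 ± 0.18 (SE). Sox10, the transcription factor that sets the Schwann cell lineage, had 15 to 36.5 reads in LD (median 24) and 14 to 59.5 reads in ADV (median 35). Its mean was 0.379 ± 0.111 FPKM in LD (SD, n = 14) and 0.519 ± 0.208 FPKM in ADV (SD, n = 16), with 12 of 16 ADV mice above the LD median. Ngfr, the p75 neurotrophin receptor, which is known for being low in mature myelinating cells, had 3 to 22 reads in LD and 3 to 31 in ADV. The medians of Ngfr were 10.5 and 11 reads, and 7 of 16 ADV mice lay above the LD median, so that the medians and most of the ranges of Ngfr were close together. Fits without the minimum gave log2 differences of 0.44 ± 0.17 (SE) for Sox10 and 0.16 ± 0.24 (SE) for Ngfr.

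**Figure D1:**
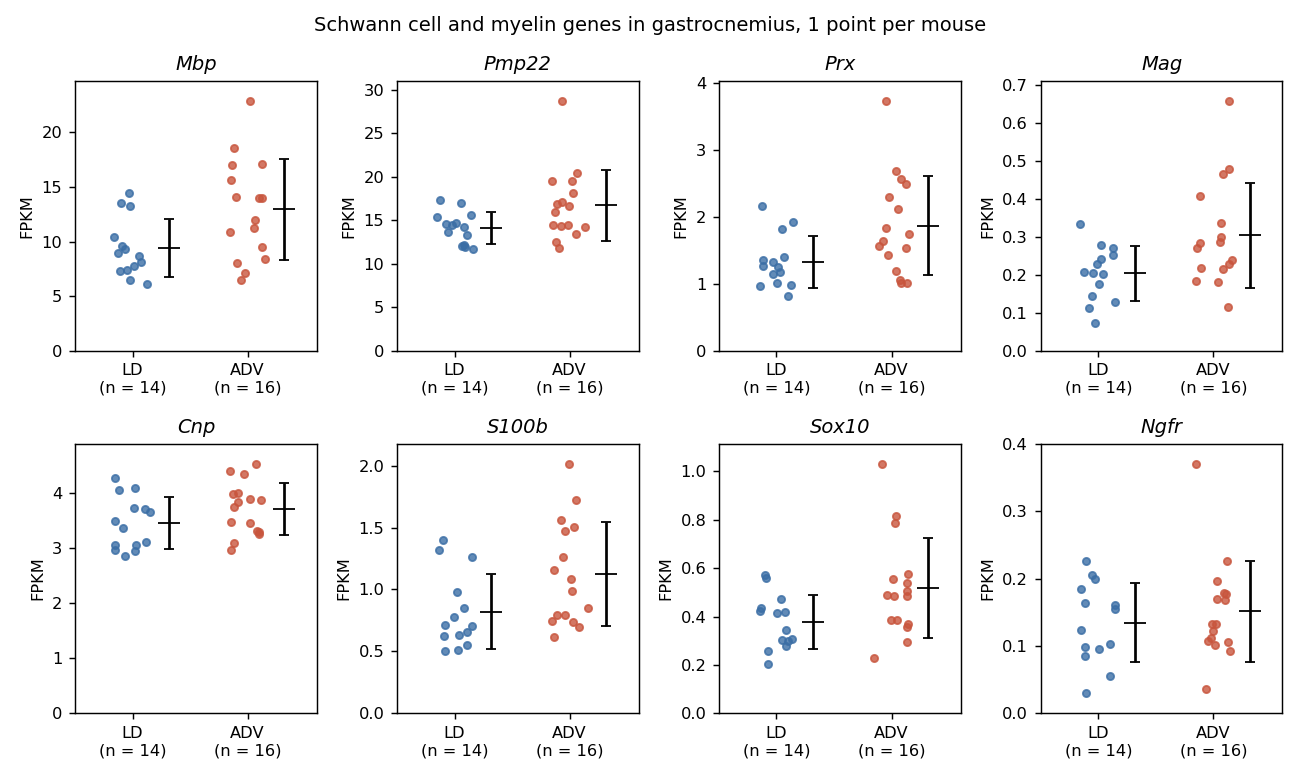
Level of each of the 8 genes in FPKM (vertical axes from 0, a scale for each gene), 1 point per mouse, in LD (blue, n = 14) and ADV (red, n = 16), with the mean and SD in black beside the points. The ADV points reach higher in every panel, from 22.9 against 14.5 FPKM at the top of Mbp to 4.53 against 4.27 FPKM at the top of Cnp, while the lower points of both groups share a range.

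The median log2 difference of the 5 tested genes was 0.44, beside 0.003 over all 12030 genes tested, and in the fit without the minimum the sign was positive for 8 of 8 genes with a median of 0.45. Across the 12030 genes edgeR's quasi-likelihood test called 10.8% at a Benjamini-Hochberg adjusted p under 0.05, with 5.61% higher and 5.2% lower in ADV, and 2.09% with a fold change over 1.3 as well (1.45% higher). With library size alone in place of TMM, 775 genes were called higher and 466 lower, against 675 and 626. edgeR called 0 of the 5 genes, with 4 of 5 at an unadjusted p under 0.05, beside 3624 of all 12030 genes. At an adjusted p under 0.05 DESeq2 called 2 of the 5, beside 1679 of 12030. limma on log2(FPKM + 0.1) called 0 of the 5, beside 1308 of 12030. Nothing is read from these counts, because the comparison took part in the choice of the genes. Mbp, Prx and S100b varied widely within groups. Their biological coefficients of variation exceeded those of 94.2%, 94.9% and 94.3% of tested genes, against 74.8% for Pmp22 and 48.0% for Cnp. A score of clock genes (Bmal1, Npas2, Nfil3 and Clock minus Dbp, Ciart, Nr1d1, Nr1d2, Per3 and Tef, log2) also differed between the groups, with values of -3.25 to 0.02 in LD and -1.72 to 0.65 in ADV. With this score as a covariate the median of the 5 genes was 0.28 on the log2 scale and 0 of the 12030 genes passed edgeR's test at that adjusted p and a fold change over 1.3, with 1490 at an unadjusted p under 0.05. Leaving out the single mouse ADV 24, which had the highest level of Mbp, Pmp22, Prx, Mag, S100b and Sox10, lowered the median to 0.37.

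The second question was whether the genes moved together from mouse to mouse. For this the mean of each group was subtracted from log2 counts scaled to library size, so that a group difference could not add to the relation, and Pearson's r was computed over the 30 mice for all 28 pairs, with 100000 permutations of the mice within groups and Benjamini-Hochberg adjustment over the 28. The coefficient was positive for 28 of 28 pairs, with a median of 0.58, and 26 of 28 passed an adjusted permutation p of 0.05. How many pairs of other genes pass the same test was not computed. The counts of passing pairs, here and below, therefore have no background to be set against. Over 12025 other genes, the mean of each gene's r to the tested genes of this set had a median of 0.004. Mbp and Prx were the closest pair (r = 0.95, rho = 0.95, adjusted permutation p = 2.8e-05 from a raw p of 1e-05, the smallest that these permutations can give). Their r was 0.97 within LD and 0.95 within ADV, and 0.95 after leaving out the 2 mice farthest from the median of Mbp. Leaving out the 2 farthest mice in the same way gave r from 0.29 to 0.95 over the 28 pairs, with 26 of 28 passing. Pmp22 followed both, with r = 0.91 to Prx and r = 0.89 to Mbp, at the same adjusted permutation p of 2.8e-05.

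The Schwann cell markers joined these myelin genes. S100b correlated with Mbp at r = 0.88 (0.90 within LD and 0.88 within ADV), and Sox10 correlated with Mbp at r = 0.82 (0.69 and 0.89). S100b and Sox10 followed each other at r = 0.76 over all mice. Of the 15 pairs of a myelin gene with a Schwann cell marker, 13 passed, with a range of r from 0.33 to 0.88, and 10 of 10 pairs of myelin genes and 3 of 3 pairs of markers passed as well. These counts too were not set beside those of other gene pairs. Both pairs that missed involved Ngfr: Mag and Ngfr (r = 0.34, rho = 0.36, adjusted permutation p = 0.0734) and Cnp and Ngfr (r = 0.33, rho = 0.25, adjusted permutation p = 0.0768). Over its 7 pairs Ngfr had a median r of 0.39, and Cnp one of 0.49, against 0.82 for Mbp and 0.79 for Prx. Mag lay between them with a median of 0.59, at 12.5 reads on average, where counting error adds to the scatter.

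Within the LD mice alone 11 of 28 pairs passed, and within the ADV mice alone 23, with medians of 0.54 and 0.68. In both groups 28 of 28 coefficients were above 0. The coefficients lay farthest apart in 3 pairs with Cnp or Mag: r of Cnp and Sox10 was 0.06 in LD and 0.67 in ADV, r of Mag and S100b was 0.26 and 0.80, and r of Cnp and S100b was 0.16 and 0.68. Of the 28 pairs 20 had the higher r in ADV. The difference between the groups' coefficients was not tested, and LD had fewer mice.

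**Figure D2:**
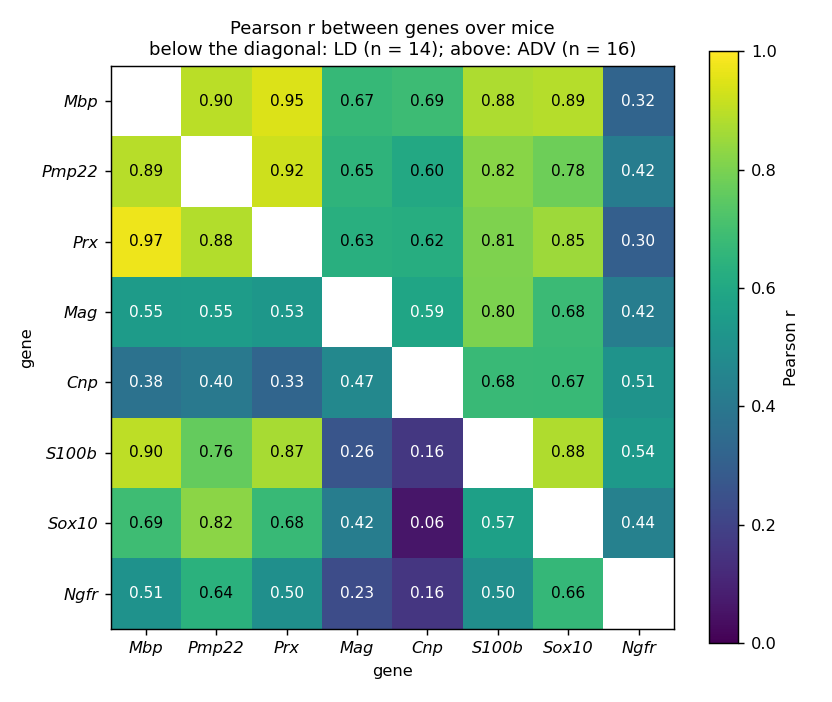
Pearson r between the 8 genes over mice, each cell 1 pair (both axes list genes), with LD (n = 14) below the diagonal and ADV (n = 16) above it. Mbp, Pmp22, Prx, S100b and Sox10 form a mostly bright block on both sides, from r = 0.57 for S100b and Sox10 in LD to r = 0.97 for Mbp and Prx in LD. Most cells of Mag, Cnp and Ngfr in LD and of Ngfr in ADV are darker, down to r = 0.06 for Cnp and Sox10 in LD.

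Seen by mouse, the 5 tested genes often lay on one side of their group means together. All 5 were above the mean in 3 of 14 LD mice and 5 of 16 ADV mice, and all 5 were below it in 4 LD mice and 5 ADV mice. The mean deviation of the 5 genes was largest in ADV 24, at 0.71 on the log2 scale, and lowest in ADV 29, at -0.55. Among LD mice it ran from -0.42 in LD 36 to 0.45 in LD 21. Leaving out each mouse in turn gave 23 to 27 pairs that passed and a median r of 0.52 to 0.62.

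**Figure D3:**
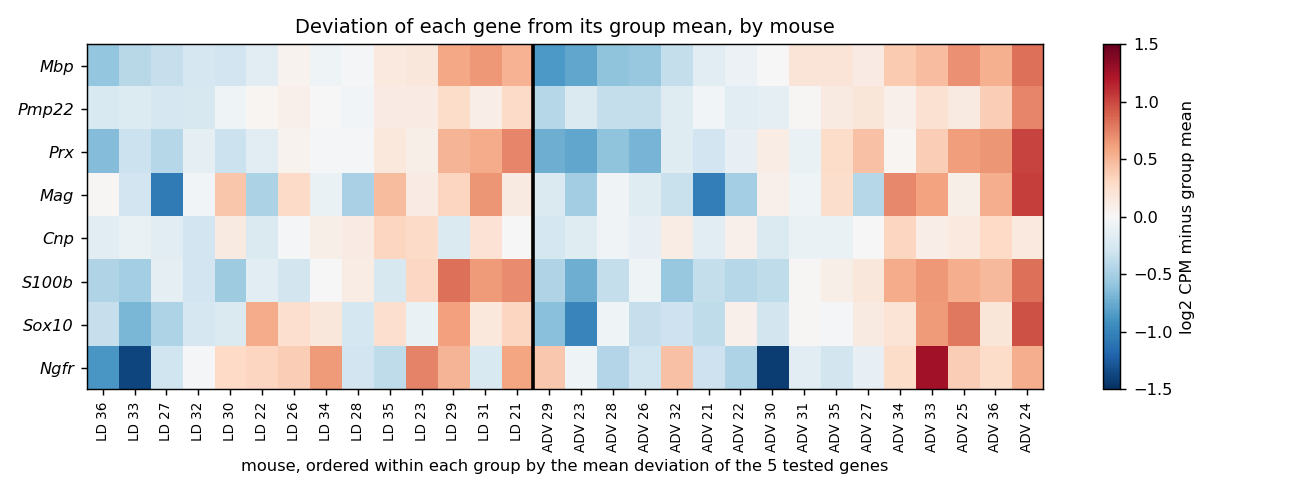
Deviation of each gene (rows) from its group mean in each mouse (columns), on the log2 scale, with LD left and ADV right of the black line and mice ordered by the mean deviation of the 5 tested genes. The columns are mostly of one color for Mbp, Prx, S100b and Sox10, from ADV 29 (mean of -0.55) to ADV 24 (mean of 0.71), and Cnp stays pale throughout.

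Since several of the 8 genes moved together, the 250 bases upstream of the start of their deposited transcripts were read from GRCm39 for 7 genes (Mbp was not analysed here) and searched on both strands for 4 short motifs. These were ACAAAG and ACAATG, read by SOX factors such as Sox10, GTGGGNG, read by EGR factors such as Egr2, and GGAATG, read by TEAD factors. The sequences are shown for Prx and Pmp22, a pair with r = 0.91, and for Cnp, which followed the others less. Capitals mark the motif matches, and the start site lies just after the last base. The windows are chr7:27198499-27198748 (+) for Prx, chr11:63019558-63019807 (+) for Pmp22 and chr11:100465480-100465729 (+) for Cnp.
Prx: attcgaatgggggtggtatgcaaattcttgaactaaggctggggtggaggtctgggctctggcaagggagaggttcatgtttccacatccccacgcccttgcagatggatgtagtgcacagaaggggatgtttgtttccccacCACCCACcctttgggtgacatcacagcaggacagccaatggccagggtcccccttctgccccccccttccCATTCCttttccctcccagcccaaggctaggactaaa
Pmp22: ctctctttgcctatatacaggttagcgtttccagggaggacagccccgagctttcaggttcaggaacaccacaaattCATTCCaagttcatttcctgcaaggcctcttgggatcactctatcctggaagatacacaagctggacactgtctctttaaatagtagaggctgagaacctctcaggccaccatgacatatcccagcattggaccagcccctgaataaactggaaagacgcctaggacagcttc
Cnp: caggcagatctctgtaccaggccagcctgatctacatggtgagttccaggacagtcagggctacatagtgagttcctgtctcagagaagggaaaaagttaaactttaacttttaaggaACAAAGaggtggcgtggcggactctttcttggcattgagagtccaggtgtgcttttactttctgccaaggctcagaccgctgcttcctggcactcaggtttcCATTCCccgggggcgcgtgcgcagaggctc

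All of these windows hold CATTCC, the reverse complement of GGAATG, at positions -37 to -32 in Prx, -173 to -168 in Pmp22 and -30 to -25 in Cnp, counted from -1 at the base before the start. Mag holds it too, at -240 to -235, so that 4 of 7 windows had it beside 10.4% of 12028 windows of tested genes. ACAAAG was in 2 of 7 (Cnp and Sox10) beside 11.9%, and ACAATG in 0 of 7 beside 5.91%. GTGGGNG was in 2 of 7 (Prx and Sox10) beside 33.5%. The windows of S100b and Ngfr held none of the 4 motifs. Whether motifs in these windows bear on the correlations between mice was not tested, and the window of Mbp was not among them. The matches are a description of these windows and no test of binding.

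Genes outside the 8 were ranked by their mean r to the 5 tested genes, over the same 30 mice. Among the 10 genes with the highest mean r, out of 12025, were Drp2 (0.76), a periaxin partner, Mal (0.76), a myelin proteolipid, and Itgb4 (0.74), an integrin subunit of Schwann cell and perineurium. Plekha4 (0.73), Gpc3 (0.73), Cadm4 (0.73), Sfrp5 (0.71), Ndrg1 (0.71) and Nbl1 (0.71) were also among these 10. The perineurial Itgb4 and the myelin genes Drp2, Mal and Cadm4 stood on the lists of nerve genes below. The median over the 12025 genes was 0.004 and the 99th percentile 0.42. Taken singly, Mal and Drp2 were among the 3 nearest genes of Prx (r = 0.90 each), Mbp (r = 0.88 and 0.87) and S100b (r = 0.82 and 0.81). Sox10 had Mal (r = 0.75) and Plekha4 (r = 0.75) among its 3 nearest, and Pmp22 had Drp2 (r = 0.86) and Itgb4 (r = 0.86).

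The nearest genes of Cnp, Mag and Ngfr were only in part others. Nearest to Cnp was Mapk8ip1 (r = 0.79), a scaffold of the JNK pathway, which ranked 15 by mean r to the 5 tested genes. Jph2 (r = 0.69), a junctional protein of muscle membranes, and Adss1 (r = 0.67), a muscle enzyme of purine metabolism, followed. Nearest to Mag were Aatk (r = 0.76), Gpc3 (r = 0.73) and Vamp2 (r = 0.71). Of these Gpc3 was among the 10 genes above and Aatk ranked 11 by mean r. Nearest to Ngfr were Pkn3, Lzts3 and Pea15a at r = 0.73 each. Each was picked as one of the highest of 12025 coefficients, so no p is given.

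Markers of other cells were set against the 8 genes as the mean log2 level of each list's tested genes, which made 96 coefficients over 11 lists and the clock score, adjusted together. Of these 7 passed an adjusted permutation p of 0.05, and 6 of the 7 were with perineurium, the epithelial sleeve around nerve bundles (Slc2a1, Cldn1 and Itgb4 tested, Lypd2 and Ntng1 not), of which Itgb4 is also known from Schwann cells. Taken singly, the r to Mbp was 0.81 for Itgb4, 0.54 for Slc2a1 and 0.50 for Cldn1. The list as a whole had r = 0.77 with Mbp and 0.77 with S100b, each at an adjusted permutation p of 0.00032. It was 0.73 with Prx, 0.72 with Pmp22, 0.61 with Sox10 and 0.55 with Mag, while Cnp (r = 0.32) and Ngfr (r = 0.42) did not pass. The remaining one was Sox10 with slow fiber markers (r = 0.52, rho = 0.57, adjusted permutation p = 0.0219). Over the 8 genes r to slow fiber markers ran from -0.09 (Cnp) to 0.52 (Sox10), with a median of 0.35. Without the 2 mice farthest from the median of these markers, r was 0.46 (Ngfr) to 0.57 (Pmp22 and Sox10) in all but Cnp (0.08). Within ADV it ran from 0.40 (Cnp) to 0.73 (Pmp22), and within LD from -0.37 (Cnp) to 0.56 (Sox10). Among the lists that did not pass, r ran from 0.10 to 0.39 for adipocytes, from 0.10 to 0.45 for fibroblasts, from -0.15 to 0.37 for endothelium, from -0.26 to 0.07 for leukocytes and from -0.08 to 0.19 for denervation genes. It ran from 0.18 to 0.49 for smooth muscle and pericytes, from -0.14 to 0.29 for satellite cells, from -0.23 to 0.31 for fast fibers, from -0.12 to 0.24 for immediate early genes and from 0.03 to 0.31 for the clock score.

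The levels of these lists in LD and ADV stand beside the differences of the 8 genes. Summed perineurium markers ran from 4.03 to 8.40 FPKM in LD (median 5.62) and from 5.30 to 9.83 FPKM in ADV (median 6.80), and 1 of 3 tested genes was called higher. Slow fiber markers summed to 39.0 to 998 FPKM in LD (median 556) and 241 to 1934 FPKM in ADV (median 772). Their median log2 difference was 0.48, with 0 of 6 genes called by edgeR and 0 at an unadjusted p under 0.05. Adipocyte markers summed to 29.5 to 176 FPKM in LD (median 111) and 19.8 to 301 FPKM in ADV (median 99.5). For these the median log2 difference was 0.65, with 0 of 6 called by edgeR and 3 at an unadjusted p under 0.05. The same median was 0.26 for perineurium, 0.12 for endothelium, -0.12 for fibroblasts and -0.29 for leukocytes. Endothelial markers summed to 52.5 to 71.8 FPKM in LD and 59.5 to 77.3 FPKM in ADV, with 2 of 6 called higher. Of the other lists, smooth muscle and pericytes and denervation each had 1 of 5 called higher, fibroblasts 1 of 6 called lower, and leukocytes 0 of 5, satellite cells 0 of 1 and fast fibers 0 of 5 (2, 0 and 1 at an unadjusted p under 0.05 in edgeR). Their part in the differences of the 8 genes between LD and ADV was not tested.

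Another 59 genes of nerve, on lists by role, were compared between LD and ADV, and 22 of them passed the minimum. Of these 5 were called at a Benjamini-Hochberg adjusted p under 0.05 in edgeR's quasi-likelihood test, all 5 higher in ADV, beside 5.61% of all genes tested. These lists were also drawn up with results of the same comparison known, so the calls are no independent evidence and nothing is read from their share. With the clock score as a covariate 0 of the 22 passed edgeR's test, although the log2 differences of the 5 genes were close to those without it (Ncmap 0.91, Cadm4 0.56, Jun 0.48, Slc2a1 0.40 and Nab2 0.37). With the GC trend removed 3 did, Cadm4 (adjusted p = 0.0521) and Nab2 (adjusted p = 0.132) being lost. The 6 tested myelin genes had positive differences in 6 of 6, with a median of 0.55 on the log2 scale. Cadm4, a contact protein of the sheath facing the axon, rose from 1.01 ± 0.202 to 1.54 ± 0.559 FPKM (SD), by 0.59 ± 0.15 on the log2 scale (SE, edgeR adjusted p = 0.0126). Ncmap, a myelin membrane protein, rose by 0.92 ± 0.24 (SE, edgeR adjusted p = 0.0157), from 22.3 reads on average. It averaged 0.339 FPKM in LD and 0.660 FPKM in ADV, so it passed the minimum of 0.5 FPKM only through ADV. Mal differed by 0.58 ± 0.21 (SE, edgeR adjusted p = 0.0618). Drp2 differed by 0.30 ± 0.16 (SE, edgeR adjusted p = 0.187), with 12 of 16 ADV mice above the LD median.

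The other lists held fewer calls. Among regulators of myelination 1 of 5 tested genes was called, Nab2, a corepressor of Egr2, at 0.38 ± 0.10 (SE, edgeR adjusted p = 0.0207), and the median was 0.08. Zeb2 (0.05), Lgi4 (0.08) and Erbb3 (-0.10) did not pass. Egr2, known as a transcription factor of myelination and as an immediate early gene of many cells, was under the minimum, at 19.5 reads on average, and in the fit without it differed by 0.97 on the log2 scale (edgeR adjusted p = 0.0099). Dhh, a signal of Schwann cells to perineurium, differed there by 0.63 (edgeR adjusted p = 0.0351), a gene named after its value was seen. That fit called 1.14% of its 32848 genes higher in ADV. Of non-myelinating Schwann cell genes 0 of 3 were called in edgeR, with 1 of 3 at an unadjusted p under 0.05 and 0 of 3 in DESeq2. They were Scn7a (-0.26 ± 0.11, SE), Ncam1 (0.02) and L1cam (0.11), which muscle and other cells also make.

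Jun, a factor that Schwann cells raise after nerve injury, was the one tested gene of the injury list and rose by 0.51 ± 0.11 on the log2 scale (SE, edgeR adjusted p = 0.0041). It also belongs to the immediate early response, as does Egr2, and Nab2 is known to be induced by EGR factors. Of 5 listed genes of that response 4 were called higher in ADV, with a median of 1.45 on the log2 scale and summed levels of 8.46 to 28.7 FPKM in LD and 10.7 to 176 FPKM in ADV. Their part in the results for Jun, Egr2 and Nab2 was not tested. Among neurotrophins and their receptors 0 of 4 were called in edgeR and 0 in DESeq2, with 1 of 4 at an unadjusted p under 0.05, and the values were 0.17 for Ntf5, 0.20 for Ntf3 and -0.22 for Sort1. Of 3 perineurial genes Slc2a1, the glucose transporter, rose by 0.40 ± 0.10 (SE, edgeR adjusted p = 0.0121), while Itgb4 (0.26) and Cldn1 (-0.20) did not pass.

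**Figure D4:**
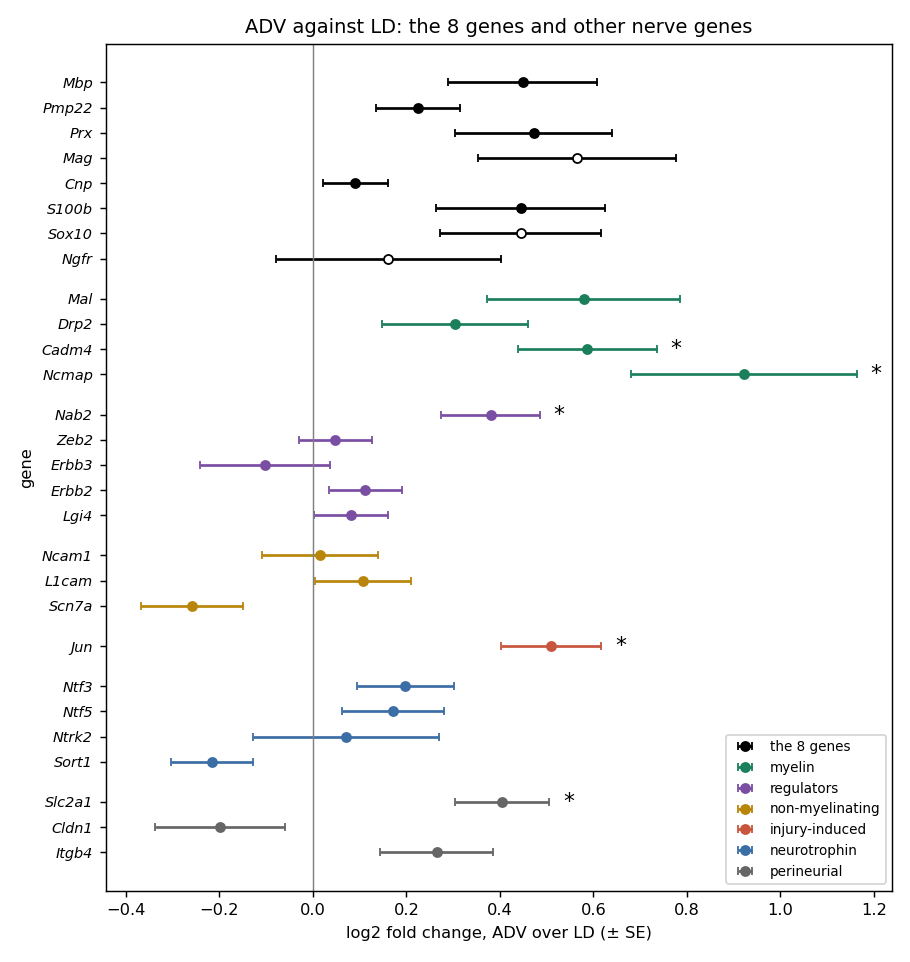
Log2 fold change of ADV over LD with its SE (horizontal axis) for the 8 genes (black, open where under the minimum and taken from the fit without it) and 20 of the 22 tested nerve genes by list. Stars mark the 5 genes outside the 8 with an edgeR adjusted p under 0.05. The genes drawn from the myelin list lie right of 0, from Drp2 at 0.30 to Ncmap at 0.92. Ncmap passed the minimum only through its level in ADV.

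Likeness between mice and difference between groups did not go together in every gene. Jun and Nab2 rose in ADV, and their mean r to the 5 tested genes was 0.00 and -0.05. Conversely Gpc3, with a mean r of 0.73, had a log2 difference of 0.00 between the groups (edgeR adjusted p = 0.984). Cadm4, Ncmap and Slc2a1 had both, with mean r of 0.73, 0.65 and 0.45. Erbb3 (0.05), Scn7a (-0.17) and Zeb2 (-0.19), all listed with Schwann cells, had mean r near or below 0.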

How the data were processed

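Poly(A)-selected RNA of gastrocnemius was sequenced by the study as paired 101-base reads from a stranded kit. The authors removed adaptors (Trimmomatic), aligned to GRCm39 (STAR, 2.7.10a in the submitters' processing notes) and counted exon reads (HOMER, 4.11). They deposited estimated counts per transcript, of which 14.8% are not whole because a mate can count 0.5, and the authors deposited FPKM for the same 57186 rows. Recomputing FPKM from counts and exon length matched within 5.0e-04. Whether counting used the strand is not given in the sources used here.

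Rounded counts of 12030 genes (mean over 20 reads and over 0.5 FPKM) were compared with edgeR 4.0.16 in R 4.3.3 (TMM, quasi-likelihood F test, no covariate), over all 14 LD and 16 ADV libraries, with DESeq2 1.42.0 and limma 3.58.1 as alternatives. A call needed an FDR under 0.05, and for counts over all genes also a fold change over 1.3. On data simulated from these libraries it called 197 of 200 genes that were changed 2-fold in either direction. Whether it would call genes with differences as small as those of Mbp or Cnp was not tested. The closest libraries of a group differed by a chi-square of 10.6 per degree of freedom, so none was counted as a repeat. Correlations used log2 CPM (prior count 2) in Python 3.11.15 with scipy 1.17.1 and numpy 2.4.6, with two-sided permutation p-values over mice, which were separate animals.

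Named genes are the 8 members, listed nerve genes with an FDR under 0.05, the 3 most abundant tested genes of each nerve list, the 10 genes with the highest mean r, the 3 nearest genes of each member and marker genes summed per list. Egr2 and Erbb3 are other Schwann cell markers, and Dhh was named after its value was seen. Of the genes this rule picks, 2 are counted in the lists but not reported here. Members and lists were chosen with earlier results of these data known. Alternatives were another normalization (DESeq2's size factors, library size), DESeq2, limma on log2(FPKM + 0.1) and log2(FPKM + 1), other filters, summed rows, a block by label number, the clock score, a GC correction and leaving out each library. Transcript starts follow the deposited rows. Of 12030 tested transcripts 12012 were found by ID in GENCODE vM39, a later release, all on the same chromosome and strand. Of these only 5452 had the same start there, and 2860 the same start and end. The motif positions and shares hold for the deposited starts, and the starts of the later release were not tested.

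The numbers in the labels gave 14 numbers shared by the groups, with correlations of deviations of -0.26 to 0.43, and 6 of 14 over 0.1, so the numbers were not taken as pairs.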

Additional observations from a re-analysis of the deposited data

How the results depend on the processing

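The median log2 difference of the 5 tested genes stayed above 0 in all settings run, from 0.22 (limma on log2(FPKM + 1)) to 0.50. Leaving out each library gave 0.37 to 0.50 for this median and 190 to 302 genes called of 12030. At an edgeR adjusted p under 0.05 alone it gave 5 to 7 of 22 nerve genes, beside 835 to 1542 of the 12030. Pairs that passed numbered 23 to 27 (23 without ADV 24 or ADV 25). Correlations with marker lists that passed numbered 5 to 13, the 13 without LD 23 and the 5 without ADV 24. The 252 genes called became 1301 with no fold change limit, 124 with limma on log2(FPKM + 1), 167 with the GC trend removed and 0 with the clock score as covariate. The 5 of 22 nerve genes, beside 1301 of 12030 genes at that adjusted p, became 8 of 37 with filterByExpr, beside 1265 of 14277. They became 3 of 22 with the GC trend removed, beside 600 of 12030, and 0 of 22 with the clock score, beside 0 of 12030. With the clock score the log2 differences of the 5 were 0.37 to 0.91. Within LD, 11 pairs and 3 list correlations passed, against 26 and 7 over all mice. DESeq2 called Mal (adjusted p = 0.0383) as well, among 7 of 22 nerve genes, beside 1679 of 12030 genes.

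The label numbers were not taken to pair the mice, and the labels do not say what the numbers mean. With the replicate block over 28 libraries 137 genes and 2 of 22 nerve genes were called, against 151 and 4 in the same libraries without it. At an edgeR adjusted p under 0.05 alone, as for the nerve genes, 494 and 616 of 12030 genes passed. Ncmap was lost in both (edgeR adjusted p = 0.105 and 0.0547). The median of the 5 tested genes was 0.31 and 0.32. Of the mice with shared numbers, 3 of 14 pairs correlated best with their own number.

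Some differences changed sign. With the clock score L1cam went to -0.0140 and Ntf5 to -0.0313. Scn7a, at -0.26 in the main fit, went to 0.0220 with that score. Ncam1 went to -0.0550 with the block and -0.0339 in those libraries without it. Leaving out each library took Ncam1 from -0.0613 to 0.0712. The causes were not tested. Genes with few reads, such as Mag and Ngfr, carry a counting error that limits both their differences and their correlations.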
